A study of Mus musculus with 12 samples.

Results

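FOXO transcription factors, genes that FOXO factors are known to switch on in starved cells, and Crebrf were followed in 3T3-L1 preadipocytes. RNA on and off polysomes was measured before and 6 h after hormonal induction. The 9 genes were Foxo1, Foxo3, Foxo4, Ccng2, Bcl6, Sesn1, Sesn3, Txnip and Crebrf. A probe was taken when its transcript accession belongs to one of these genes, which gave 14 of the 41174 non-control probes of the array and 9 of the 18217 genes with a symbol. Foxo1, Txnip and Crebrf had 2 probes each, Sesn1 had 3, and the other 5 genes had 1. The genes were chosen by their known roles and by measured values of these arrays, a strong shift off polysomes that was attributed to them, so their M-values, defined below, and their changes within a single fraction are given as descriptions without a test.

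FOXO factors are forkhead transcription factors that enter the nucleus when growth factor signals are low and activate genes for cell cycle arrest, stress resistance, autophagy and cell death. Insulin acts through PI3 kinase and AKT, AKT phosphorylates the FOXO proteins, and the phosphorylated proteins are held in the cytoplasm by 14-3-3 proteins, so that their target genes are turned down. In preadipocytes Foxo1 is known as a brake on early differentiation that insulin releases. The arrays measure mRNA only and give neither the phosphorylation nor the place of the FOXO proteins.

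3T3-L1 is a clonal mouse embryonic fibroblast line that turns into adipocytes in culture. Confluent cells in newborn bovine serum were harvested without hormones (0 h) or after 6 h in medium with fetal bovine serum, 0.5 mM IBMX, which raises cAMP, 1 µM dexamethasone, a glucocorticoid, and 5 µg/ml insulin, so that the times differ in serum and in all 3 agents, whose effects cannot be told apart. Lysates were spun through sucrose gradients, the non-polysomal pool (np) joined gradient fractions 5 to 7, and the polysomal pool (p) joined 9 to 11. The 4 groups np0, p0, np6 and p6 had 3 replicates each, described as biological, on 12 one-color arrays, and each of 3 slides held the replicates of 1 number. The RNA comes from whole cultures, in which fewer cells that use a gene and less RNA per cell cannot be told apart.

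The 75th percentile of the signal was 228 to 255 on the np0 arrays, 417 to 481 on the p0 arrays, 241 to 267 on the np6 arrays and 401 to 530 on the p6 arrays, and 55.7% to 60.8% of the probes of an array were well above background. All 7 preadipocyte and fibroblast markers, among them Dlk1, Pdgfra, Thy1 and Col1a1, were well above background on the 12 arrays, as were Fabp4, Adipoq and Plin1 of the mature adipocyte list. No array showed Lep, Epcam or Pecam1 well above background, Ptprc was on 1 array and Cdh5 on the 3 p6 arrays, and Krt8 was on all 12. Scaling used the spike-ins, RNAs added to every sample, whose log2 signal relative to the mean of the 12 arrays was -0.48 to -0.21 on the p6 arrays. This scaling put the median of all probes 0.54 higher at 6 h in the polysomal and 0.04 higher in the non-polysomal fraction, and changes are to be read against these values. Precision is limited by the number of arrays.

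FOXO proteins bind DNA through a forkhead domain, with GTAAACA as the core of their usual site and CAAAACA as the core of the insulin response sequence. The RefSeq promoters (GRCm38.p6, 250 bases before to 50 bases after the transcript start) were searched for these letters on both strands. Each match in the promoters listed for 8 of the 9 genes is shown, whatever the change of the gene. The capitals mark the core, and Sesn1 holds it on the opposite strand.
Txnip: ttggaggcctgGTAAACAagggccaagtag
Sesn1: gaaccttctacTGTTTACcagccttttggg
Ccng2: cgtcgcagactCAAAACAaaaacaaggggt
Crebrf: acccgtcaggaaggacataaaCAAAACAaa
The Txnip stretch is chr3:96557825-96557854 on the plus strand, with the core at -121 to -115 from the start, and the Sesn1 stretch is chr10:41810585-41810614, plus strand, with the core at 23 to 29. The Ccng2 stretch is chr5:93267546-93267575, plus strand, with the core at -16 to -10, and the Crebrf stretch is chr17:26715670-26715699, plus strand, with the core at 42 to 48. Of 32851 promoters, 3.65% held GTAAACA and 6.28% held CAAAACA, and of the 10 promoters listed for 8 of the 9 genes, 2 held the first and 2 the second. The windows of Foxo1, Foxo3, Bcl6 and Sesn3 held neither. A match describes the letters and shows no binding.

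Values are log2 signals after scaling, and a level of one probe cannot be set against that of another. The change averaged over both fractions, ((p6 - p0) + (np6 - np0)) / 2, and the fraction difference averaged over both times, ((p0 - np0) + (p6 - np6)) / 2, were tested with limma, with p-values adjusted over all probes. In this balanced layout their noise is uncorrelated with that of the M-value. A change in a single group still enters all of these values, so the tests are not free of the choice of genes, least of all at the brighter Crebrf probe. By the brightest probe of each gene, 6 of the 9 genes fell over time (Ccng2, Bcl6, Sesn1, Sesn3, Txnip and Crebrf), 2 rose (Foxo1 and Foxo3) and Foxo4 did not pass the test. Over the 14 probes, 9 fell and 3 rose. Of all probes 16.1% fell and 42.5% rose, and of those well above background on every array of at least 1 group, which all 14 were, 25.6% fell and 49.2% rose. The median of the 9 genes was -0.98, against 0.29 over all probes. The plot of log2 signals by group shows the level of each gene on every array.

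**Figure D1:**
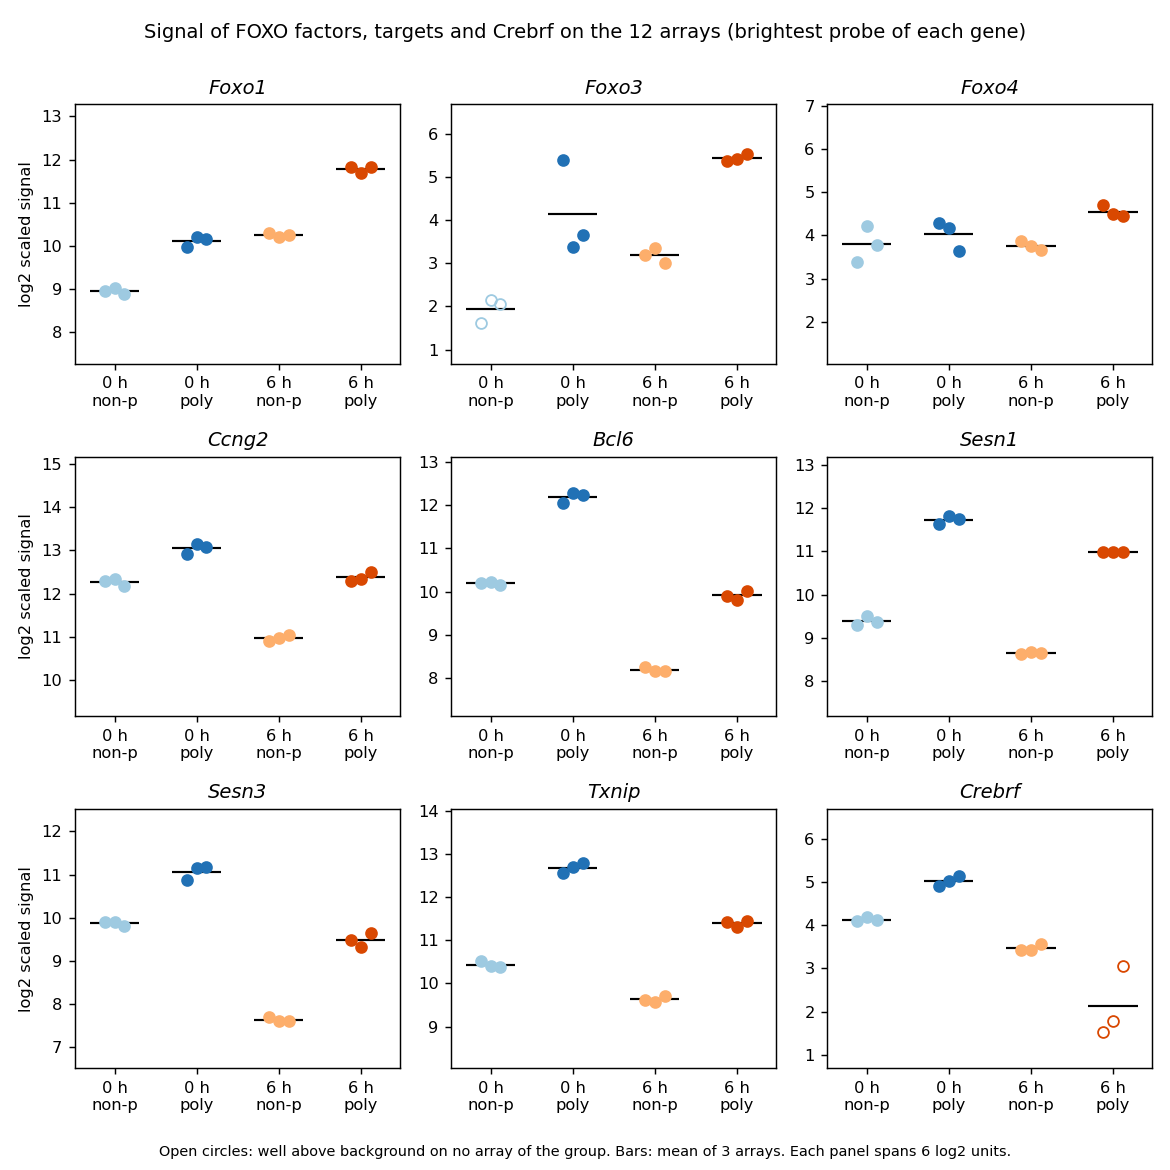
log2 scaled signal (y axis, 6 log2 units in each panel) of the brightest probe of each of the 9 genes on the 12 arrays, by time and fraction (non-p, non-polysomal; poly, polysomal). Points are arrays, bars are means of 3 arrays, and open circles mark groups in which no array was well above background. Foxo1 stood higher at 6 h in both fractions, and Ccng2, Bcl6, Sesn1, Sesn3 and Txnip stood lower at 6 h in both.

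Foxo1, the main FOXO factor of insulin-responsive tissues, rose. Its brighter probe read 8.96, 9.03 and 8.90 on the np0 arrays, 9.99, 10.20 and 10.16 on p0, 10.29, 10.21 and 10.25 on np6, and 11.82, 11.69 and 11.84 on p6. Within each fraction the 6 h arrays lay clear of the 0 h arrays, and np6 lay only just above p0, by less than the spread of the p0 arrays. The mean change was 1.48 ± 0.06 (SE, n = 12 arrays), 2.78-fold, with an adjusted p of 8.61e-09, and the 3 replicate numbers gave 1.58, 1.33 and 1.51. The other probe gave 2.48-fold (1.31, adjusted p = 8.89e-08), with p0 above np6. Of all probes, 94.7% and 92.9% lay below these 2 values.

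Foxo3, the family member best known for cell death and atrophy genes, was dim. It read 1.62, 2.14 and 2.06 on np0, where no array was well above background, 5.39, 3.38 and 3.64 on p0, 3.18, 3.36 and 3.00 on np6, with 2 of 3 arrays well above background, and 5.36, 5.41 and 5.54 on p6. The first p0 array lay as high as the p6 arrays and apart from the other p0 arrays, so the polysomal groups overlapped, whereas np6 lay above np0. Foxo3 rose by 1.27 ± 0.30 (SE, n = 12, adjusted p = 0.00534). Without the first p0 array the change was 1.58, on the authors' values it was 0.45 and with normexp correction 0.32. Without replicate number 2 or 3 it no longer passed (adjusted p = 0.0557 and 0.0773), and in the non-polysomal fraction the level at 6 h was at least 1.19-fold higher. This bound, like those below, sets the brighter group against the lowest signal that counted as well above background on each array of the dimmer group, or the probe's own where that was higher.

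Foxo4, the third FOXO factor measured, was also dim but above background on every array. It read 3.38, 4.21 and 3.78 on np0, 4.28, 4.16 and 3.64 on p0, 3.86, 3.75 and 3.67 on np6 and 4.70, 4.49 and 4.44 on p6. The p6 arrays stood above the others, and the other groups overlapped. The mean change of 0.24 ± 0.15 (SE, n = 12) had an adjusted p of 0.202 and was within the spread of the replicates. Scaled to the 75th percentile it was -0.03, and with normexp background correction it was 0.23 and passed (adjusted p = 0.00209). The change also passed on the authors' values (0.26, adjusted p = 0.00583) and with a line fitted to the spike-ins (0.57, adjusted p = 0.0158).

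Bcl6, a zinc finger repressor that FOXO factors induce, fell most among those of the 14 probes that were well above background on all 12 arrays. It read 10.20, 10.22 and 10.15 on np0, 12.04, 12.27 and 12.22 on p0, 8.26, 8.16 and 8.17 on np6 and 9.91, 9.81 and 10.02 on p6. The 4 groups did not overlap, and the polysomal level at 6 h was below the non-polysomal level at 0 h. The fall was 4.38-fold (-2.13 ± 0.06, SE, n = 12, adjusted p = 1.26e-09), and 0.865% of all probes lay below it. By the brightest probes, p6 lay wholly below p0 in 6 of the 9 genes and np6 wholly below np0 in 6, against 12.7% and 23.4% of all probes. Of probes well above background in a group, 18.6% and 30.9% fell by limma's test in these fractions.

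Ccng2 encodes cyclin G2, a cyclin of resting cells that slows the cell cycle. It read 12.29, 12.35 and 12.17 on np0, 12.93, 13.14 and 13.08 on p0, 10.91, 10.97 and 11.04 on np6 and 12.30, 12.34 and 12.50 on p6. At 6 h the polysomal level was at the non-polysomal level of 0 h, since p6 and np0 overlapped and the other groups stood apart. Ccng2 fell 1.98-fold (-0.98 ± 0.06, SE, n = 12, adjusted p = 3.24e-07).

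Sesn1 and Sesn3 encode sestrins, stress proteins that bind GATOR2 and restrain mTORC1. Sesn3 read 9.91, 9.90 and 9.81 on np0, 10.88, 11.16 and 11.17 on p0, 7.70, 7.60 and 7.61 on np6 and 9.48, 9.32 and 9.64 on p6. As with Bcl6, both fractions at 6 h lay below both fractions at 0 h. Sesn3 fell 3.77-fold (-1.91 ± 0.07, SE, n = 12, adjusted p = 9.30e-09).

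Sesn1 moved less. Its brightest probe read 9.30, 9.50 and 9.37 on np0, 11.64, 11.83 and 11.74 on p0, 8.64, 8.68 and 8.66 on np6 and 10.98, 10.98 and 11.00 on p6. Within each fraction the 6 h arrays lay below the 0 h arrays, and each polysomal group lay above both non-polysomal groups. The fall was 1.67-fold (-0.74 ± 0.05, SE, n = 12, adjusted p = 7.08e-07). The second probe fell by 0.47 (adjusted p = 0.00211), with p0 and p6 overlapping. The dimmest probe, which was well above background on no non-polysomal array, gave -0.08 (adjusted p = 0.706) and turned positive under several other treatments of the signal.

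Txnip encodes an arrestin-domain protein that binds thioredoxin and limits glucose uptake. Its brighter probe read 10.51, 10.41 and 10.38 on np0, 12.56, 12.69 and 12.79 on p0, 9.61, 9.58 and 9.70 on np6 and 11.43, 11.30 and 11.45 on p6. The order was p0, p6, np0, np6 from high to low at both probes, with no overlap. The brighter probe fell 2.06-fold (-1.05 ± 0.06, SE, n = 12, adjusted p = 1.11e-07), and the dimmer one fell 2.04-fold (-1.03, adjusted p = 2.53e-06), which was -0.57 on the authors' values and -0.37 with normexp.

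Crebrf encodes the CREB3 regulatory factor, which promotes breakdown of CREB3 and is known for a starvation response in adipose cells. Both of its probes were dim. The brighter one read 4.09, 4.18 and 4.12 on np0, 4.91, 5.01 and 5.15 on p0, 3.43, 3.43 and 3.56 on np6 and 1.52, 1.78 and 3.06 on p6. The p6 arrays were the lowest group here and none of them was well above background, so p6 lay at least 2.83-fold below p0.

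The second Crebrf probe read 3.55, 3.83 and 4.04 on np0, 3.50, 3.58 and 4.24 on p0, 0.73, 0.65 and 0.91 on np6 and 1.77, 1.48 and 1.11 on p6. Here the fractions overlapped at 0 h, and no array of 6 h was well above background, so the 6 h values have no order between fractions. The level at 6 h was at least 1.19-fold lower in the polysomal and at least 1.77-fold lower in the non-polysomal fraction. The mean change was -1.78 ± 0.22 (SE, n = 12, adjusted p = 6.16e-05) at the first probe and -2.68 ± 0.16 (SE, n = 12, adjusted p = 1.94e-07) at the second. Most of the first value came from the dim p6 arrays that also gave the shift off polysomes, so its p-value is no independent support. On the authors' log2 values, without background subtraction, both were -0.43, and with normexp correction they were -0.15 and -0.06, the latter no longer past the threshold (adjusted p = 0.371).

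**Figure D2:**
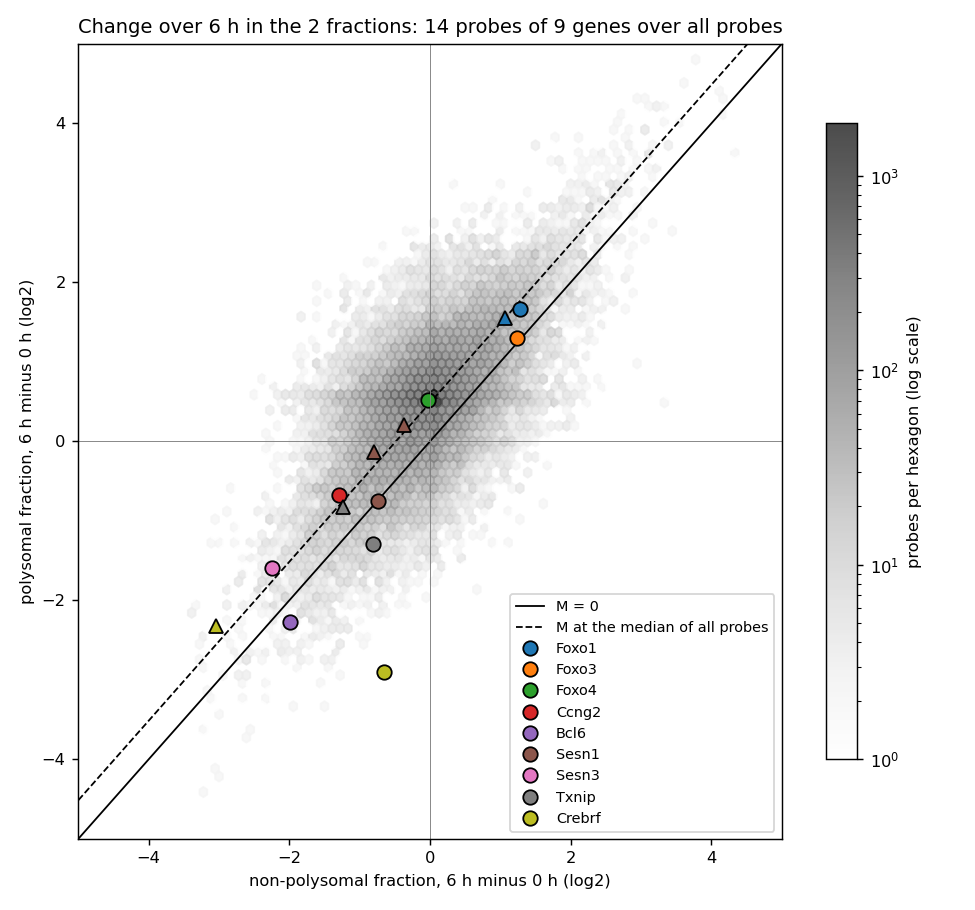
Change from 0 h to 6 h (log2) in the non-polysomal fraction (x axis) and the polysomal fraction (y axis) for the 14 probes, in colour by gene (circle, brightest probe; triangle, other probes), over all probes (grey hexagons, log count; probes outside the axes are not drawn). The solid line is an M-value of 0 and the dashed line the median M-value of all probes, 0.49. The probes of Foxo1 and Foxo3 lie in the upper right, and those of Bcl6, Sesn3, Txnip, Ccng2 and Crebrf in the lower left, with the brighter Crebrf probe far below the solid line.

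The plot of the changes in the 2 fractions sets these falls beside those of all probes. In the polysomal fraction the brightest probes changed by 1.67 (Foxo1), 1.30 (Foxo3), 0.52 (Foxo4), -0.67 (Ccng2), -2.27 (Bcl6), -0.75 (Sesn1), -1.59 (Sesn3), -1.29 (Txnip) and -2.90 (Crebrf), given as descriptions. In the non-polysomal fraction they changed by 1.29, 1.24, -0.03, -1.30, -2.0, -0.74, -2.24, -0.80 and -0.65 in the same order. The 6 h values of Crebrf in the polysomal and the 0 h values of Foxo3 in the non-polysomal fraction were not well above background, so these 2 sizes are uncertain.

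By the averaged fraction difference, 8 genes were higher in the polysomal fraction, 0 were lower and Crebrf did not pass (-0.23, adjusted p = 0.390 by limma, with the values of the dim 6 h arrays in it). Crebrf was called in opposite directions by other choices, lower without the third p6 array (-0.46, adjusted p = 0.000304) and higher on the authors' values (0.25, adjusted p = 0.00158) and with normexp (0.25, adjusted p = 0.000316). Of all probes 55.6% were higher and 13.2% lower in the polysomal fraction, so this count says little about the 9 genes. Sesn1 stood out by size, with 2.33 ± 0.05 (SE, n = 12), 5.05-fold, at its brightest probe and 3.13 at the second, above 92.3% and 98.9% of all probes. Txnip followed with 2.01 and 3.08, Bcl6 with 1.85, Sesn3 with 1.52, Foxo1 with 1.34 and 1.58, and Ccng2 with 1.09. Foxo3 had 2.23 with a wide error (SE 0.30), and Foxo4 had 0.51 (adjusted p = 0.0148), which was -0.59 with scaling to the 75th percentile. That scaling lowered the other differences as well, to 1.24 for Sesn1, 0.91 for Txnip and 0.75 for Bcl6 at the brightest probes, 0.42 for Sesn3, 0.24 for Foxo1 and -0.0053 for Ccng2.

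At the dimmest Sesn1 probe, whose non-polysomal arrays were not well above background, the polysomal level was at least 7.09-fold higher at 0 h and at least 9.15-fold higher at 6 h. At 0 h the polysomal arrays lay wholly above the non-polysomal ones in 8 of the 9 genes, and at 6 h again in 8, against 38.8% and 67.3% of all probes. Of probes well above background in a group, 58.7% and 70.3% were higher on polysomes by limma's test, so these counts say little about the 9 genes.

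The M-value, (p6 - np6) - (p0 - np0), is positive when a transcript shifted towards polysomes over the 6 h. It was below 0 at the brightest probe of 4 genes, Crebrf (-2.25), Txnip (-0.48), Bcl6 (-0.27) and Sesn1 (-0.02), while the median of all probes was 0.49. These values chose the genes or belong to the contrast that did, and carry no test. At Crebrf the 3 replicate numbers gave -2.74, -2.49 and -1.53, each from a p6 array that was not well above background, so that the size is uncertain. At Bcl6 they gave -0.19, -0.40 and -0.22, and at Txnip -0.23, -0.56 and -0.65. An M-value below 0 in every replicate number was seen at 9.09% of all probes.

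The M-values of the other 5 genes were above 0. Ccng2 had 0.63, Sesn3 0.65, Foxo4 0.55 and Foxo1 0.38 and 0.48 at its probes. Foxo3 had 0.06, from -1.59 in replicate number 1 and 0.80 and 0.96 in the others. All of these were within 0.43 of the median of all probes.

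Probes of the same gene went apart. The second Crebrf probe had an M-value of 0.72 against -2.25 at the first, the second Txnip probe 0.41 against -0.48, and the other Sesn1 probes 0.66 and 0.58 against -0.02. At Crebrf neither probe was well above background in every group. With other treatments of the signal the brighter Crebrf probe gave -2.67 (75th percentile), -2.65 (quantile normalization), -1.14 (a line fitted to the spike-ins), -0.25 (the authors' values) and -0.03 (normexp), so that the strong shift attributed to these genes was seen at 1 of 2 Crebrf probes and was small on the authors' values and with normexp. The cause of that difference was not tested. Bcl6 and the brighter Txnip probe gave -0.69 and -0.90 with scaling to the 75th percentile, where the median of all probes was 0.06, and 0.23 and -0.10 with the line, so the sign at Bcl6 depended on the scaling.

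**Figure D3:**
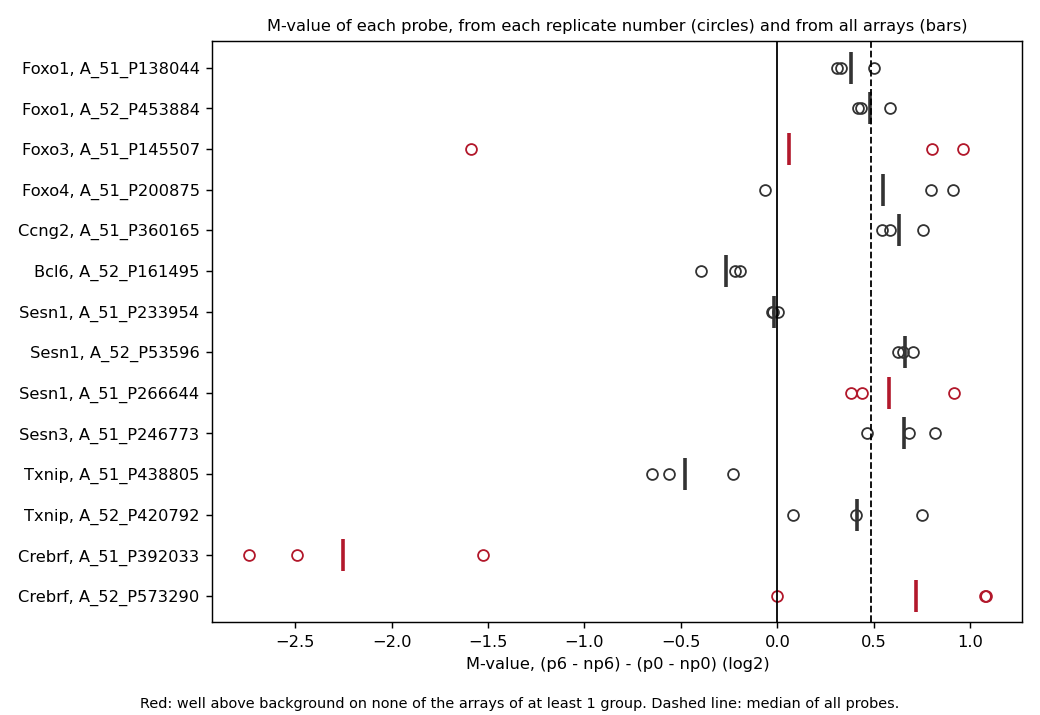
M-value (x axis, log2) of each of the 14 probes (y axis), with a circle for each replicate number and a bar for the estimate from the 12 arrays. Red probes were well above background on none of the arrays of at least 1 group, and the dashed line is the median of all probes, 0.49. The bar of the brighter Crebrf probe is the one below -1, and the probes of Crebrf, Txnip and Sesn1 disagree in sign.

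Further FOXO target genes were examined in the same way. Of a list of 41 such genes, without the 9 above, 37 had a probe. The list also holds Foxo6, itself a FOXO factor, which is part of the counts. In the polysomal fraction 13 fell and 14 rose, against 11.7% and 50.7% of all probes, and in the non-polysomal fraction 20 fell and 9 rose, against 19.6% and 20.6%. Among probes well above background in a group, as 35 of the 37 were, 18.6% fell and 56.7% rose in the polysomal fraction. In the non-polysomal fraction 30.9% of them fell and 32.7% rose. The median change of the list was 0.12 and -0.33, beside 0.54 and 0.04 over all probes. Scaled to the 75th percentile, 20 fell in each fraction and 12 and 10 rose, against 21% and 22.6% of all probes that fell. With a line fitted to the spike-ins, 8 fell and 22 rose on polysomes, where 5.5% of all probes fell, and 20 fell and 9 rose off polysomes, where 22.8% fell.

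The genes named next were chosen after their values had been seen. Depp1, Trim63, Ppargc1a, Bbc3 and Fbxo32 fell in both fractions. Ppargc1a, a coactivator of mitochondrial and fasting genes, read 10.11, 10.40 and 10.38 on p0 and 6.31, 6.08 and 6.18 on p6, and fell 17.2-fold in the polysomal (adjusted p = 1.97e-09) and 15.8-fold in the non-polysomal fraction (adjusted p = 5.03e-09). Depp1, a FOXO target linked to autophagy, read 9.24, 9.43 and 9.47 on p0 and 4.13, 4.13 and 4.19 on p6, a 37.5-fold fall (adjusted p = 4.83e-09), and 1 of its np6 arrays was well above background.

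The ubiquitin ligases of muscle atrophy fell as well. Fbxo32 (atrogin-1) read 8.38, 8.64 and 8.50 on p0 and 5.74, 5.67 and 5.76 on p6, and fell 6.89-fold (adjusted p = 8.61e-08). Trim63 (MuRF1) was well above background on all arrays of 0 h and on none of 6 h, and lay at least 8.39-fold lower on polysomes and at least 2.74-fold lower off polysomes (adjusted p = 4.03e-06 and 3.30e-05).

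Among cell death and arrest genes, Bbc3, which encodes the BH3-only protein PUMA, fell by 2.59 in the polysomal and 3.42 in the non-polysomal fraction. Gadd45a fell by 1.68 and 2.26, and Cdkn1b, the CDK inhibitor p27, by 0.60 and 1.38. Pdk4, a kinase that shuts off pyruvate dehydrogenase in fasting, fell by 1.27 and 1.76, and Cited2 by 1.31 and 1.49. All of these passed the test in both fractions, and no 6 h array overlapped with the 0 h arrays of its fraction.

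Other genes of the list went up. Trib1, a pseudokinase, rose by 3.26 in the polysomal and 2.32 in the non-polysomal fraction, Bnip3, a mitophagy receptor, by 1.87 and 2.05, and Gadd45b by 2.11 and 0.95. The list therefore did not move as a block. The plot of further FOXO targets gives each gene with its error.

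**Figure D4:**
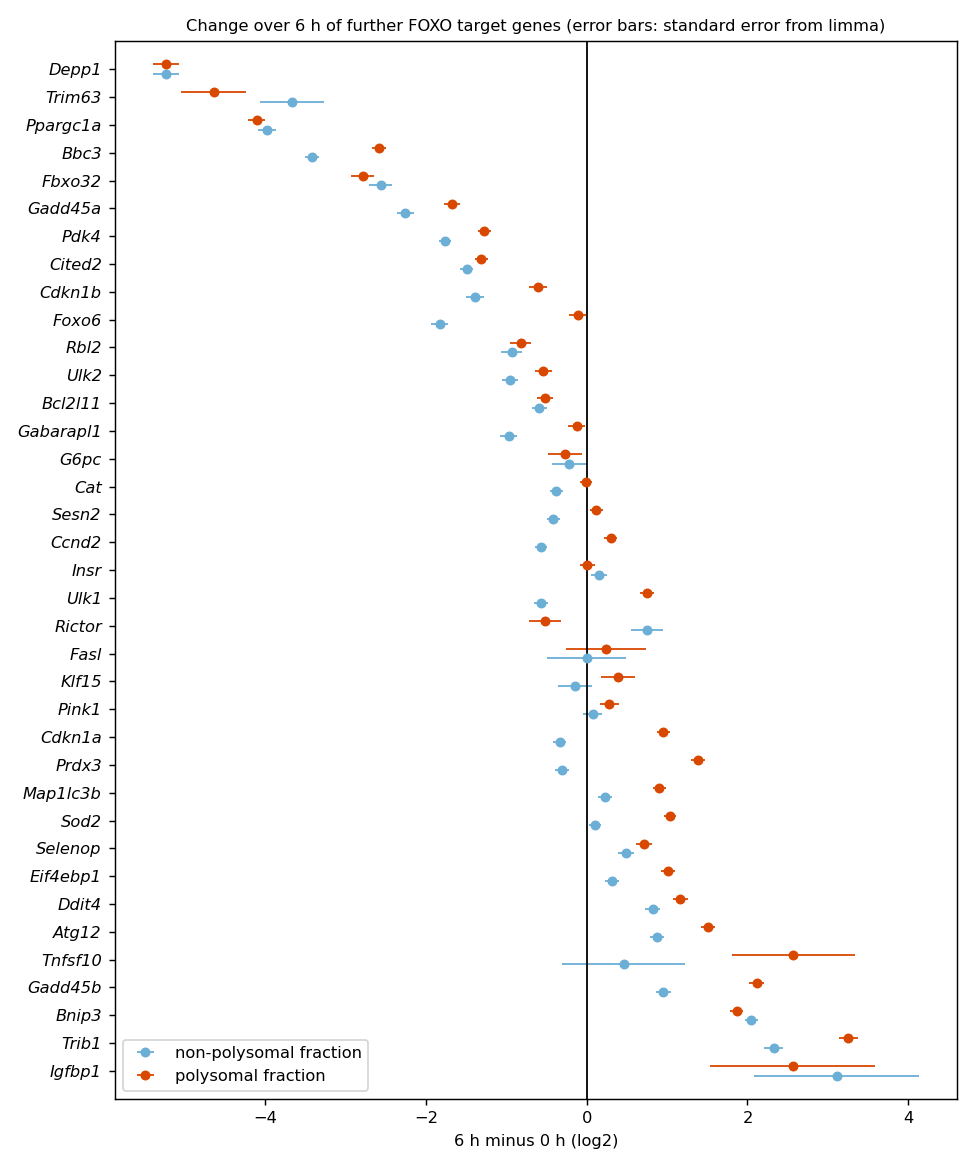
Change from 0 h to 6 h (x axis, log2) of 37 genes of the further FOXO target list, Foxo6 included (y axis), in the polysomal (orange) and non-polysomal (blue) fraction, with standard errors from limma over 12 arrays. Depp1, Trim63, Ppargc1a, Bbc3 and Fbxo32 lie far to the left in both fractions, with the 6 h signals of Trim63 not well above background so that its size is a bound only, and Trib1, Bnip3 and Igfbp1 lie above 1.5 in both.

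Of 30 regulators of FOXO proteins, 29 had a probe. In the polysomal fraction 18 rose and 3 fell, against 50.7% and 11.7% of all probes, and 12 had a positive and 2 a negative M-value by the test, against 32.0% and 4.01%. No test set these counts, or those of the 4 lists below, against all probes, and nothing particular to a list is read from them. Most list genes were well above background in a group, 28 of these 29 and 112 of the 120 in all lists. Among all such probes 56.7% rose and 18.6% fell on polysomes, and 32.7% rose and 30.9% fell off polysomes. Of these probes 47.1% had a positive and 6.27% a negative M-value by the test, the closer comparison for the lists. Ywhag, a 14-3-3 protein, rose on polysomes from 11.76, 11.77 and 11.92 to 14.71, 14.56 and 14.63, 7.05-fold (adjusted p = 2.18e-09), with an M-value of 1.42 (adjusted p = 1.20e-05). Sgk1, a kinase that phosphorylates FOXO proteins and a known glucocorticoid target, named after its values were seen, rose 3.77-fold on polysomes and 3.34-fold off polysomes. Ep300, an acetyltransferase, and Pik3r1, the regulatory subunit of PI3 kinase, had M-values of -0.80 and -0.60 (adjusted p = 0.00479 and 0.00484), both near 0 when each array was scaled by a line fitted to its spike-ins (0.05 and 0.0039).

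Foxo6, the remaining FOXO factor, fell off polysomes and did not pass the test on polysomes. It read 9.95, 10.28 and 10.26 on p0 and 10.05, 9.89 and 10.21 on p6, which overlapped (-0.11, adjusted p = 0.389), and 8.96, 9.03 and 8.95 on np0 and 7.20, 7.09 and 7.17 on np6, a 3.55-fold fall (adjusted p = 4.74e-07). Its M-value was 1.72 (adjusted p = 3.18e-05), with 1.85, 1.56 and 1.73 in the 3 replicate numbers.

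Of 18 genes of the sestrin and GATOR pathway, 10 rose and 4 fell on polysomes, where 50.7% and 11.7% of all probes did, and 3 rose and 8 fell off polysomes, where 20.6% and 19.6% did. By limma's test 11 had a positive and 0 a negative M-value, against 32.0% and 4.01%. Sesn2, the sestrin best known as a target of the stress factor ATF4, read 12.00, 12.27 and 12.13 on p0 and 12.20, 12.23 and 12.32 on p6 (0.12, adjusted p = 0.220), and fell by 0.42 off polysomes (adjusted p = 0.00173). On polysomes the brightest probes of the 3 sestrin genes gave -1.59 for Sesn3, -0.75 for Sesn1 and 0.12 for Sesn2. The second and the dimmest Sesn1 probe gave -0.14 and 0.20, so the place of Sesn1 between the others depended on the probe. The differences between the genes were not tested. Rraga, a Rag GTPase, had an M-value of 1.26, and Sec13, a GATOR2 subunit, of 1.09.

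Around Txnip, 13 thioredoxin and arrestin-domain genes were measured, and 8 rose and 3 fell on polysomes, against 50.7% and 11.7% of all probes. Arrdc4, an arrestin-domain relative that shares the glucose-sensing factor MondoA with Txnip, changed by 0.57 on and -0.40 off polysomes (adjusted p = 0.00415 and 0.0347). Mlxip, which encodes MondoA, and its partner Mlx, both named after their values were seen, rose by 2.32 and 1.69 on polysomes and by 1.44 and 1.07 off polysomes.

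Of 12 corepressors of BCL6, 6 rose and 3 fell on polysomes, against the same 50.7% and 11.7%. Hdac4 and Ctbp2 rose by 2.31 and 1.89 there and had M-values of 1.25 each, while Ncor1 fell by 1.08 on and 0.53 off polysomes, with an M-value of -0.55 (adjusted p = 0.00527). Under other treatments of the signal the Ncor1 value ranged from -1.02 to -0.03. Of 9 genes of the CREB3 family and its partners, 6 rose and 1 fell on polysomes, again beside 50.7% and 11.7%, and 5 had a positive and 0 a negative M-value by limma, beside 32.0% and 4.01%. Creb3l1 and Creb3l4, membrane-bound relatives of CREB3, had M-values of 1.1 and 0.86. The 3 genes listed beside Ccng2 were the cyclin genes Ccng1 and Ccni and Gak, which encodes the cyclin G-associated kinase. They rose by 0.31, 0.73 and 0.67 on polysomes, where Ccng2 was lower at 6 h. Over the 120 genes of these lists with a probe, 84 were higher and 14 lower in the polysomal fraction at 0 h. Of all probes 37.0% and 15.0% were, and of those well above background in a group 58.7% and 22.4%. By M-value 62 list genes were positive and 4 negative past the threshold, 38 and 26 with scaling to the 75th percentile. Of probes well above background in a group 47.1% were positive and 6.27% negative, before that scaling.

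The genes whose signals ran most like those of a member were taken from 13317 genes, by Pearson's r over the 12 arrays, as a description in which the 4 groups set most of the pattern. For the brighter Crebrf probe they were Ogt (0.968), Gab3 (0.959), Zfp37 (0.935) and Zgrf1 (0.934), whose M-values were -2.09, -0.81, -0.60 and -1.41. For the brighter Txnip probe they were Pdgfra, Gbf1, Wdr6, Casp12 and Fer, with r of 0.998 each and M-values between -0.55 and -0.33.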

How the data were processed

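The 12 scanner files, made with Agilent Feature Extraction 10.7.1.1 per the file headers, hold deposited intensities per spot, and the authors' own table holds deposited log2 values. The background-subtracted intensity was taken to log2, spots marked as outliers (138 to 299 per array) were left out, spots of a probe were averaged, and the mean of 10 spike-in transcripts was subtracted, as the methods name spike-in scaling. Depth is signal over background, and 20366 probes were well above it on every array. The 4 groups were fitted in R 4.3.3 with limma 3.58.1 (lmFit, eBayes, Benjamini-Hochberg adjustment over all probes, threshold 0.05). Genes were named from RefSeq accessions, and a gene was represented by its brightest probe. Lists hold known regulators, targets and partners.

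Members, lists and tests were chosen with earlier results of these data known. Named list genes were Foxo6, Sesn2 and up to 2 per list with the highest and the lowest M-value past the threshold, with 1 sign in every replicate number. The 5 genes most like Crebrf and Txnip in signal were also named, except 1 item that is not reported here. Replicates of the same number shared a slide, and their deviations correlated by -0.097 to 0.424 (median 0.068, over 20125 probes), with 4 of 18 pairs above 0.1. Pairs of different numbers gave -0.379 to 0.208 (median -0.038), with 6 of 36 above 0.1. The number was not used as a block in the main fit, and a shared effect of the number was not tested. On simulated data of 40808 probes, 76.5% of 200 probes given a mean change of 1 were called, all with the right sign, and 63.5% of 200 given an M-value of 2. Of the probes left unchanged, 20 and 5 were called. The simulated noise was independent between arrays, and unchanged probes had the same mean in every group. The real arrays share slides and differ between groups at most probes, so these rates may not carry over. Alternatives were 75th percentile scaling, quantile normalization, a line through the spike-ins, the authors' values, normexp (offset 50, on median signals, fitted without spots of non-uniform background), no dim probes, outlier spots kept, the replicate block, a variance trend, gene means and leaving out arrays.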

Additional observations from a re-analysis of the deposited data

Results flagged for a closer look

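By the test of the M-value, which compares the change over 6 h between the fractions, 62 list genes were positive and 4 negative. Named below are up to 2 genes with the highest and up to 2 with the lowest value in each list. Foxo6 and Sesn2 were named whatever their values. In each of these named genes the 2 fractions changed differently. On polysomes the change was the higher one for Sgk3 (1.74), Foxo6 (1.72), Prdx3 (1.69), Ywhag (1.42), Rraga (1.26), Hdac4 (1.25), Ctbp2 (1.25), Creb3l1 (1.1), Sec13 (1.09), Arrdc4 (0.97), Txnrd3 (0.91), Creb3l4 (0.86), Ccni (0.65) and Sesn2 (0.54). It was the lower one for Rictor (-1.27), Ep300 (-0.80), Pik3r1 (-0.60) and Ncor1 (-0.55). The median M-value of all probes was 0.49, and Ccni and Sesn2 lay near it. Of probes well above background in a group, 47.1% were positive and 6.27% negative by the test. At Rictor the polysomal level fell by 0.52 while the non-polysomal level rose by 0.75. At Sgk3 no np6 array was well above background. The dimmest Sesn1 probe read higher at 6 h on polysomes and lower off polysomes in each of the 3 replicate numbers, a difference of 0.58 that was not tested, and since no non-polysomal array was well above background there, its values off polysomes have no order.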

How the results depend on the processing

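Each of the 6 genes that fell did so under all 25 alternatives tried. For Crebrf this is no independent support, since its fall came mostly from the dim p6 arrays that gave the shift off polysomes. With normexp the change of its brighter probe was only -0.15, and the second probe did not pass (limma, adjusted p = 0.371). The count that rose, 2, was 1 without replicate 2 and without replicate 3, with a range of 1 to 3 over the settings that left out arrays. Foxo4 also passed as a rise on the authors' values, with the line through the spike-ins and with normexp. Genes lower in the polysomal fraction numbered 2 after scaling to the 75th percentile and 1 after quantile normalization, and 0 to 1 without single arrays or numbers. Members with an M-value below 0 numbered 7 with quantile normalization and 2 with a line through the spike-ins.

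Scaling moved the lists most. Positive M-values, 62, became 38 (75th percentile), 27 (quantile) and 104 (line), and 37 to 63 without arrays or numbers, the low end without replicate 3. Negative ones, 4, became 26, 38 and 0 under these, 7 on the authors' values, 9 with normexp, and 2 to 5 without arrays or numbers. Rises on polysomes, 65, became 27 (quantile), and falls, 27, became 47, 53 and 14. Genes higher on polysomes at 0 h, 84, became 55 (75th percentile), and lower ones, 14, became 40 and 28 (quantile). Of all probes 23.1% rose and 24.1% fell over time after scaling to the 75th percentile, 23.5% and 24.5% after quantile normalization, and 59.6% and 12.0% with the line.

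Among tested values, signs turned as follows. With 75th percentile scaling Foxo4 had -0.031 over time and -0.59 between fractions, Ccng2 -0.0053 and the second Crebrf probe -0.77 between fractions. The brighter Crebrf probe had 0.20 (line), 0.25 (authors' values), 0.25 (normexp) and 0.050 (gene means) between fractions. The dimmest Sesn1 probe had 0.17 (line), 0.059 (authors' values) and 0.14 (normexp) over time, and -0.22 to 0.076 when arrays or numbers were left out, above 0 without np0 replicate 2 (0.051), np6 replicate 3 (0.0025) and replicate 2 (0.076). M-values of list genes turned to 0.047 (Ep300, line), 0.0039 (Pik3r1, line) and -0.12 (Sesn2, quantile). Those of Ncor1, Ccni, Creb3l4 and Rictor kept their sign but lost the test under some alternatives. Their values nearest 0 were -0.03, 0.08, 0.32 and -0.29, and limma's adjusted p reached 0.829, 0.625, 0.0831 and 0.116. The members' own M-values, which had no test, turned under the scalings and signal treatments at Bcl6 (0.23, line), Sesn1 (0.42, line), Foxo1 (-0.04, 75th percentile, and -0.17, quantile, with -0.01 at its other probe), Foxo3 (-0.36 and -0.61), Ccng2 (-0.13, quantile) and the second Txnip probe (-0.0099, 75th percentile, -0.05, authors' values, and -0.17, normexp). With the replicate block 6 members fell and 2 rose, 60 list genes had a positive and 4 a negative M-value, and no count moved by over 1.5 times. The causes were not tested. Dim probes (Foxo3, Crebrf, the dimmest Sesn1 probe) limit what can be said of those genes.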
